A study of Mus musculus with 36 samples.

Results

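The comparison described here asks whether RNA was distributed between P-bodies and cytoplasm differently in fibroblasts on day 3 of reprogramming than in fibroblasts that were not reprogrammed. It uses 8 libraries of the 36 samples in the series, 2 for each of 4 groups: P-bodies and cytoplasm of mouse embryonic fibroblasts (MEFs), and P-bodies and cytoplasm of control MEFs at day 3 of reprogramming. P-body enrichment is the log2 fold of P-body over cytoplasm within a condition. The quantity tested for each gene, called the difference below, is the enrichment at day 3 minus the enrichment in MEFs. It is positive for an RNA whose fold of P-body over cytoplasm was higher at day 3, and negative where that fold was higher in MEFs. Genes are said below to rise or fall by this difference unless a fraction is named.

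According to the study's methods, MEFs were grown from midgestation mouse embryos, of both sexes, from which the head, limbs and inner organs had been taken out. The reprogrammable MEFs carried a doxycycline-inducible polycistronic cassette for Oct4, Klf4, Sox2 and Myc in the 3′ untranslated region (UTR) of Col1a1. They also carried the M2-rtTA transactivator at Rosa26 and an EGFP reporter under Pou5f1 regulatory elements, and were induced for 3 days in a medium with doxycycline, LIF and ascorbic acid. In both conditions P-bodies were marked by a GFP-tagged LSM14A protein delivered by a lentivirus, driven by the EF1a promoter, and sorted as fluorescent particles. Wild-type CD1 mice were also used to derive MEFs, and the labels do not say which mice gave the uninduced MEFs or what the controls at day 3 carried. Mouse strain, medium and factor induction therefore cannot be told apart. The study's methods speak of biological replicates for its sequencing assays without saying, for these libraries, whether they were separate cultures or embryos. The cytoplasmic fraction was a resuspended pellet of the lysate after nuclei had been removed, and P-bodies were sorted from it. The part kept as cytoplasm was taken before sorting and so still held P-bodies. The sources do not say which numbered libraries share one such fraction. Hence the p-values measure the spread between libraries, which may be technical.

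P-bodies are membraneless granules in the cytoplasm that gather RNA together with decapping factors, the RNA helicase DDX6 and the LSM14 proteins. Messenger RNAs inside them are translated poorly, and those engaged with ribosomes, such as mRNAs for secreted proteins at the endoplasmic reticulum (ER), are commonly found outside. In the first days of reprogramming, fibroblasts lose mesenchymal gene expression and gain epithelial features before the pluripotency genes of the cell's own genome are switched on.

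A motif in the 3′ UTR is one route by which an mRNA can be directed to repression or decay, and 3 such motifs were therefore looked for in the genes of the comparison. The AU-rich heptamer TATTTAT is bound by decay factors. The others are matches to microRNA seeds, which are bases 2 to 8 of the mature microRNA, shown in capitals below (RefSeq, GRCm38.p6). The let-7 family shares 1 seed and is abundant in fibroblasts, and the miR-290 cluster shares another and is a pluripotency cluster.
mmu-let-7a-5p: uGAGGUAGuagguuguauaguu
mmu-miR-98-5p: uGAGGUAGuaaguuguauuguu
mmu-miR-291a-3p: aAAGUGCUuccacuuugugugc
mmu-miR-294-3p: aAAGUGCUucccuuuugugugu

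Among the 24 genes with the largest differences, described below, TATTTAT occurred in the 3′ UTR of 4 of the 11 that rose and have an annotated 3′ UTR, and in 4 of the 10 that fell and have one. It occurred in 27.4% of all 21020 annotated 3′ UTRs. The sites of 7 of these genes are shown with 11 bases on either side and the motif in capitals, so that the leading genes of both directions can be compared (mm10, GENCODE M21 transcripts, strand of the gene). A single site is shown per gene: the 3′ UTR of Epha3 holds 3 and those of Id2 and Dvl1 hold 2 each, and in Dvl1 the second overlaps the end of the capitals. The first 4 genes fell and the last 3 rose.
Id2, chr12:25094355-25094383, minus strand: tgtgataccgtTATTTATgagagactttc
Id4, chr13:48264830-48264858, plus strand: tcaaagtcaaaTATTTATggggatctgaa
Dvl1, chr4:155858868-155858896, plus strand: ggggtctaactTATTTATttattgctagc
Ybx3, chr6:131364945-131364973, minus strand: ttttatgccctTATTTATtcctaggatga
Igsf10, chr3:59317424-59317452, minus strand: tttatttcatcTATTTATaaaggagcctt
Epha3, chr16:63545498-63545526, minus strand: gggcaagtgcgTATTTATtttcttttgga
F2rl1, chr13:95511932-95511960, minus strand: gatcattggaaTATTTATtatcagttttg

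The 8 libraries held 19384697 to 31185799 assigned reads. Cytoplasm replicates correlated at 0.996 in each condition (Pearson, log2 CPM, the read count scaled to a common library total, 9737 genes with a mean of at least 10 CPM) and MEF P-body replicates at 0.989. Day 3 P-body replicate 1 stood apart: its correlation with replicate 2 was 0.967, and with the 2 day 3 cytoplasm libraries it was 0.970 and 0.966. For replicate 2 the correlations with the cytoplasm were 0.929 and 0.928. The standard deviation (SD) of log2 enrichment over these genes was 0.383 in day 3 replicate 1 and 0.595 in replicate 2, against 0.846 and 0.865 in the MEF replicates. Whether P-bodies and cytoplasm were separated equally well in both conditions was not tested. Replicates of all 4 groups differed by more than sampling noise (chi-square over degrees of freedom, 4.98 to 49.4). At least 9 of 12 fibroblast markers reached 10 CPM in every library, and Vim, a mesenchymal filament, stood between 1863 and 3319 CPM throughout. Apart from Vim and Twist1, these 12 markers had lower means in day 3 cytoplasm than in MEF cytoplasm. Postn went from 2390 to 69.5 CPM and Col1a1 from 13000 to 834 CPM there.

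The transgenic factors checked the labels. Pou5f1, which encodes Oct4, had at most 4 reads in each of the 4 MEF libraries and stood at 182 and 170 CPM in the day 3 cytoplasm and 87.1 and 52.3 CPM in day 3 P-bodies. Sox2 had 1 or 2 reads in each MEF library, 130 and 134 CPM in the day 3 cytoplasm and 68.2 and 59.1 CPM in day 3 P-bodies. Both stood lower in P-bodies than in the cytoplasm at day 3, with enrichments of −1.33 ± 0.20 and −1.05 ± 0.13 on the log2 scale (± standard error [SE], n = 2 against 2, edgeR adjusted p = 0.00444 and 0.00237). With so few MEF reads their differences from MEFs were not measurable (edgeR adjusted p = 0.318 and 0.313). Reads of the cassette can count at these genes.

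Klf4 (chromosome 4, 55527143 to 55532466), the pluripotency factor that is also made by fibroblasts, changed sides. In MEFs it had 75.1 and 95.0 CPM in P-bodies and 49.5 and 43.7 CPM in the cytoplasm. In day 3 libraries it had 160 and 122 CPM in P-bodies and 279 and 292 CPM in the cytoplasm. Thus it was higher in P-bodies than cytoplasm in MEFs and lower at day 3, and in neither condition did the fractions overlap. Its difference was −1.88 ± 0.22 (edgeR adjusted p = 0.00103) and was −2.18 without day 3 P-body replicate 1. Cassette and endogenous Klf4 reads cannot be told apart in the day 3 values. Myc, the fourth factor, was depleted from P-bodies in both conditions. It had 50.9 and 45.8 CPM in MEF P-bodies against 88.8 and 77.5 CPM in the cytoplasm, and 184 and 190 CPM against 295 and 307 CPM at day 3, a difference of 0.09 ± 0.16 (edgeR adjusted p = 0.74).

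Of 17488 genes tested, 1677 (9.59%) had a higher and 898 (5.13%) a lower P-body enrichment at day 3 than in MEFs. In the same fit of 8 libraries, MEFs gave 3288 enriched (18.8%) and 4216 depleted genes (24.1%; 42.9% in all), and day 3 gave 950 (5.43%) and 1358 (7.77%), all by edgeR at an adjusted p under 0.05. Among the 1677 genes that rose the median enrichment was −1.19 in MEFs and −0.18 at day 3, and among the 898 that fell it was 1.16 in MEFs and 0.24 at day 3. These medians share their libraries with the difference that chose the genes and are given as a description. Over all genes tested the medians were 0.00 and −0.01. Of the risen genes 1574 (93.9%) were depleted in MEFs, and of the fallen genes 808 (90%) were enriched in MEFs. Thus 1574 of all 4216 MEF-depleted genes rose and 808 of all 3288 MEF-enriched genes fell. The shares of all genes tested that stand beside the gene lists below do not take this into account. Of the risen genes 773 and of the fallen genes 383 differed at least 2-fold.

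The count depended on the libraries. Without day 3 P-body replicate 1, 2068 genes were higher and 2479 lower, and higher calls made up 45.5% of the calls in place of 65.1%. Without replicate 2 there were 3124 and 2422. Leaving out a cytoplasm library lowered the counts to 442 and 145 (MEF replicate 1), 654 and 288 (MEF replicate 2), 311 and 183 (day 3 replicate 1) or 167 and 92 (day 3 replicate 2), and leaving out a MEF P-body library gave 1188 and 396 (replicate 1) or 1028 and 463 (replicate 2). Of the 1677 risen genes 1676 kept their sign in all 8 of these fits, as did the 898 fallen genes, and 164 and 89 were called in all 8. The genes were chosen on the same 8 libraries, most of which each fit reuses, so a kept sign is no independent check. A fit without 1 library leaves its group with a single one, and its spread comes from the other groups. Counts from such fits therefore do not measure support, least of all without a day 3 P-body library, whose replicates differed most.

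**Figure D1:**
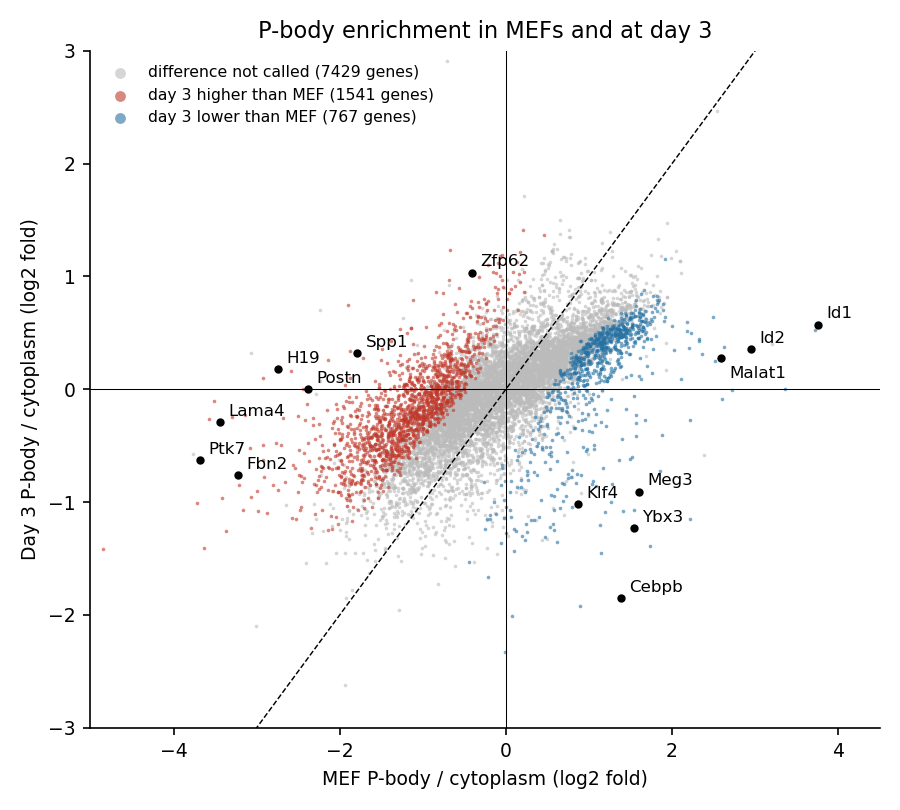
Each point is 1 of 9737 genes with a mean of at least 10 CPM, by its log2 P-body enrichment in MEFs (x axis) and at day 3 (y axis); red and blue mark genes whose difference was called higher (1541) or lower (767) at day 3, and 4 genes lie outside the axes. Points lie flatter than the dashed line of equal enrichment, with an SD of 0.871 in MEFs and 0.467 at day 3, and Cebpb, Ybx3, Meg3 and Klf4 lie on the MEF-enriched, day 3-depleted side.

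The 12 largest rises among called genes with a mean of at least 10 CPM and at least 10 reads in each library were all in genes depleted from MEF P-bodies. Lama4 (chromosome 10, 38965515 to 39110188), a laminin chain of basement membranes, had 17.5 and 10.99 CPM in MEF P-bodies and 161 and 148 CPM in MEF cytoplasm. At day 3 it had 394 and 356 CPM in P-bodies and 460 and 456 CPM in the cytoplasm. The wide gap between the MEF fractions was therefore small at day 3 (enrichment −3.44 ± 0.19 and −0.29 ± 0.17), while the cytoplasmic level went up (1.57 ± 0.17). The difference was 3.15 ± 0.25 (edgeR adjusted p = 0.000214).

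Ptk7 (chromosome 17, 46564471 to 46629504), a pseudokinase receptor of planar cell polarity, had 39.0 and 21.2 CPM in MEF P-bodies and 405 and 370 CPM in MEF cytoplasm. Day 3 libraries had 263 and 207 CPM in P-bodies against 353 and 371 CPM in the cytoplasm. Between the P-body libraries of the conditions 24.7% of all genes tested rose and 24.6% fell (49.3% in all), and Ptk7 rose by 2.96 ± 0.24 there, while its change in the cytoplasm was −0.10 ± 0.22 (difference 3.06 ± 0.32, edgeR adjusted p = 0.000757). Capn6, a calpain-family protein without protease activity, had the same pattern at a lower level. It stood at 2.17 and 2.11 CPM in MEF P-bodies and between 12.6 and 19.98 CPM in the other 6 libraries, a difference of 2.92 ± 0.33 (edgeR adjusted p = 0.000952).

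Fbn2, a fibrillin of elastic microfibrils, went from 21.8 and 21.3 CPM in MEF P-bodies against 199 and 202 CPM in the cytoplasm to 224 and 193 CPM against 353 and 353 CPM at day 3. It remained depleted at day 3 (−0.76 ± 0.10, edgeR adjusted p = 0.00342) and its difference of 2.46 ± 0.16 had the smallest SE of the 24. Iqgap2, a scaffold protein, rose from 1.80 and 1.91 CPM in MEF P-bodies to 237 and 210 CPM in day 3 P-bodies, and from 13.3 and 10.6 to 271 and 262 CPM in the cytoplasm (difference 2.43 ± 0.21). F2rl1, a protease-activated receptor, had 0.694 and 0.717 CPM in MEF P-bodies, 7.64 and 7.47 CPM in MEF cytoplasm, 12.5 and 11.7 CPM in day 3 P-bodies and 22.7 and 24.6 CPM in day 3 cytoplasm (difference 2.44 ± 0.30).

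Some of the 12 genes were barely detected at day 3. Lrrc15, a leucine-rich repeat membrane protein of activated fibroblasts, had 221 and 191 CPM in MEF cytoplasm and 21.2 and 13.3 CPM in MEF P-bodies, and 0.722 to 1.999 CPM in the 4 day 3 libraries. Its difference was the largest under these limits (3.32 ± 0.52, edgeR adjusted p = 0.004) and rested on at least 20 reads in each library. Igsf10 (2.71 ± 0.39), Aldh1l2, a mitochondrial folate enzyme (2.65 ± 0.44), and Epha3, an ephrin receptor (2.56 ± 0.37), also stood below 7 CPM in all day 3 libraries. Without day 3 P-body replicate 1 the values of Igsf10 and Epha3 were 2.01 and 1.81. Ddit4, a stress-induced inhibitor of mTORC1 signalling, stayed abundant: it had 6.99 and 5.10 CPM in MEF P-bodies and 21.8 to 34.4 CPM in all other libraries (2.45 ± 0.32).

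H19 (chromosome 7, 142575529 to 142578143), an imprinted long noncoding RNA, had 7.93 and 5.65 CPM in MEF P-bodies and 46.0 and 44.6 CPM in MEF cytoplasm. Its day 3 levels were 55.5 and 94.4 CPM in P-bodies and 68.7 and 63.5 CPM in the cytoplasm, where the fractions overlapped. The difference was 2.92 ± 0.33 (edgeR adjusted p = 0.000952).

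**Figure D2:**
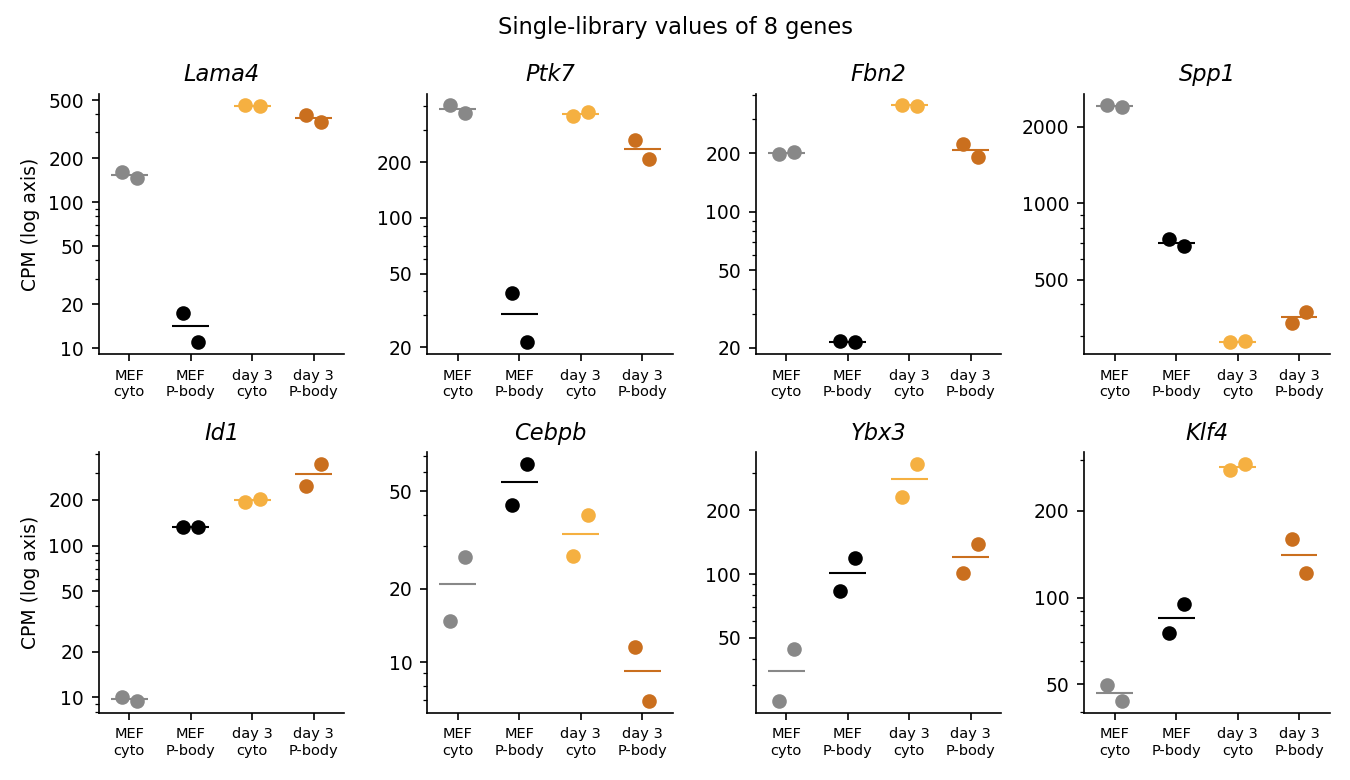
CPM of 8 genes in each of the 8 libraries on log axes; points are libraries, with replicate 1 on the left, and bars are means of 2. For Lama4, Ptk7 and Fbn2 the MEF P-body points lie far below the other 3 groups, Spp1 and Id1 have P-body points above the cytoplasm at day 3, and Cebpb, Ybx3 and Klf4 have them above it in MEFs and below it at day 3.

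The 12 largest falls under the same limits included the transcription regulators Id1, Id2, Id4, Cebpb and Atoh8. Id1 (chromosome 2, 152736251 to 152737410), an inhibitor of basic helix-loop-helix factors, had 132 and 132 CPM in MEF P-bodies and 9.99 and 9.46 CPM in MEF cytoplasm. Its day 3 levels were 247 and 346 CPM in P-bodies and 194 and 204 CPM in the cytoplasm. It was therefore still enriched at day 3 (0.57 ± 0.14, edgeR adjusted p = 0.0303), after 3.76 ± 0.17 in MEFs, and the difference was −3.19 ± 0.22 (edgeR adjusted p = 0.000127).

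The 3 related genes Id2, Id3 and Id4 also fell. Id2 had 45.0 and 46.6 CPM in MEF P-bodies and 5.26 and 6.61 CPM in MEF cytoplasm, then 145 and 187 CPM and 129 and 131 CPM at day 3 (−2.59 ± 0.22). Id3 had 613 and 678 CPM in MEF P-bodies against 108.5 and 100.3 CPM in the cytoplasm (−2.26 ± 0.18). Id4 had 7.27 and 8.64 CPM in MEF P-bodies against 2.103 and 2.28 CPM, and 23.4 and 23.7 CPM against 38.6 and 39.4 CPM at day 3. Id4 was thus depleted at day 3 (−0.73 ± 0.16), unlike Id1. Between MEF and day 3 cytoplasm Id1, Id2 and Id4 rose by more than 4 log2 units and Id3 by 1.88 ± 0.13.

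Cebpb (chromosome 2, 167688915 to 167690418), which encodes the C/EBPβ transcription factor, had 44.0 and 64.8 CPM in MEF P-bodies and 14.8 and 27.0 CPM in MEF cytoplasm. At day 3 it had 11.5 and 6.95 CPM in P-bodies and 27.2 and 39.9 CPM in the cytoplasm. No P-body library overlapped the cytoplasm of its condition, and the order of the fractions was opposite. The difference was −3.23 ± 0.47 (edgeR adjusted p = 0.00255) and −3.73 without day 3 P-body replicate 1.

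Ybx3 (chromosome 6, 131364855 to 131388476), a cold-shock domain protein that binds mRNA, turned in the same way, with 83.2 and 119 CPM in MEF P-bodies against 25.2 and 44.3 CPM, and 101 and 139 CPM against 231 and 332 CPM at day 3 (−2.77 ± 0.39, edgeR adjusted p = 0.00238). Dvl1, a Dishevelled protein of Wnt signalling, had 65.9 and 65.8 CPM in MEF P-bodies against 18.2 and 27.1 CPM, and 12.1 and 14.4 CPM against 23.4 and 32.1 CPM at day 3 (−2.61 ± 0.30). Eid2, an inhibitor of differentiation, had 18.6 and 23.3 CPM against 4.38 and 8.25 CPM in MEFs and 10.9 and 8.55 CPM against 22.9 and 28.3 CPM at day 3 (−3.12 ± 0.39). Smpd3, a neutral sphingomyelinase, turned as well (−2.59 ± 0.43). Its day 3 P-body replicates were 15.4 and 7.55 CPM, and it lost its call without day 3 cytoplasm replicate 2 (−2.36, edgeR adjusted p = 0.0588).

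Fabp7, a fatty acid binding protein, had 16.9 and 17.6 CPM in MEF P-bodies against 1.30 and 1.32 CPM, and 24.5 and 32.5 CPM against 20.2 and 19.2 CPM at day 3 (−3.19 ± 0.28). Atoh8, a basic helix-loop-helix factor, had 15.0 and 12.4 CPM against 1.82 and 2.70 CPM in MEFs and 16.9 to 21.9 CPM in all 4 day 3 libraries (−2.68 ± 0.33). The noncoding RNA gene Meg3 had 129 and 157 CPM in MEF P-bodies against 43.3 and 51.0 CPM and turned to 7.83 and 7.90 CPM against 13.5 and 16.0 CPM (−2.51 ± 0.22). G530011O06Rik, for which no function is given here, had the largest of these falls (−3.35 ± 0.43), with 28.6 and 33.6 CPM in MEF P-bodies and between 1.998 and 6.55 CPM in the other 6 libraries.

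**Figure D3:**
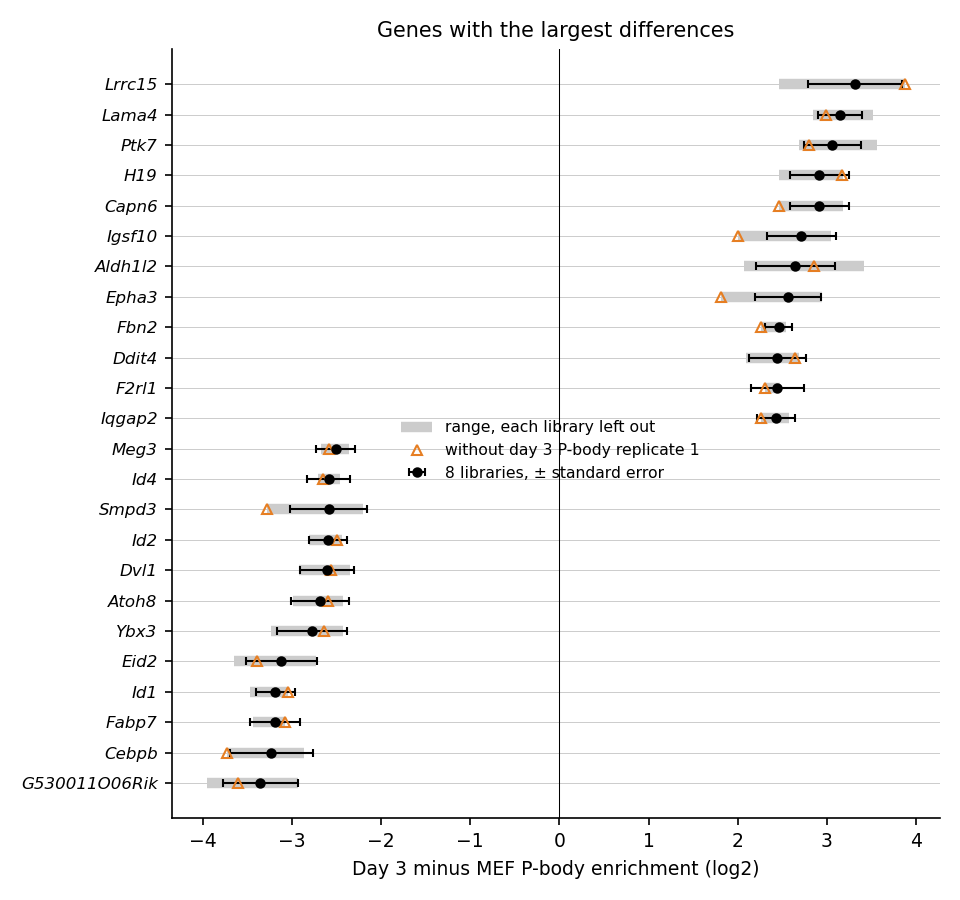
Difference (day 3 minus MEF enrichment, log2) of the 12 genes with the largest rise and the 12 with the largest fall; black points with bars are the value and SE over 8 libraries, grey bars the range over 8 fits with 1 library left out, and open triangles the fit without day 3 P-body replicate 1. All grey bars stay on their side of 0, and Lrrc15, Epha3, Igsf10 and Smpd3 have triangles more than 0.5 from their point.

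Some called genes had too few reads to give a size. Tbx4 had 0 reads in both MEF P-body libraries and 31 and 39 in MEF cytoplasm, with at least 41 in each day 3 library. Igf2os had 0 reads in both MEF P-body libraries, 27 and 18 in MEF cytoplasm, and at most 9 at day 3. Tmem132e had 18 and 4 reads in MEF P-bodies, 72 and 80 in MEF cytoplasm, and reads in 1 of 4 day 3 libraries (17). On the other side, 6330407A03Rik had 21 and 25 reads in MEF P-bodies and at most 4 elsewhere. Of all calls, 86 had under 10 reads in at least 1 library.

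Genes of the extracellular matrix moved together. Of 67 genes tested, 45 rose (67.2%, against 9.59% of all genes tested) and 2 fell (2.99%, against 5.13%). Their median enrichment was −1.54 in MEFs and −0.59 at day 3, and the median difference was 1.02, against 0.00 over all genes tested. In MEFs 59 of the 67 were depleted from P-bodies, and of all 4216 genes depleted there 1574 rose. In single P-body libraries the median over the list was −1.45 and −1.64 in MEFs and −0.42 and −0.65 at day 3, so the groups did not overlap. In the cytoplasm 52 of the 67 genes fell at day 3 and 9 rose, where 23.5% of all genes tested fell and 22.5% rose (46.1% in all). Most matrix mRNAs were thus less abundant in the cytoplasmic fraction at day 3 while their depletion from P-bodies was smaller. Fewer cells of a type and less RNA per cell cannot be told apart in bulk samples.

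By role, 16 of 19 collagens, 19 of 28 glycoproteins and proteoglycans and 10 of 20 enzymes and inhibitors rose. Col3a1, a fibrillar collagen, had 2494 and 2241 CPM in MEF P-bodies against 11490 and 10370 CPM in the cytoplasm, and 624 and 459 CPM against 788 and 733 CPM at day 3 (1.72 ± 0.19, edgeR adjusted p = 0.000952). Col1a1, whose locus carries the cassette in reprogrammable cells, had 452 and 441 CPM against 817 and 851 CPM at day 3 and rose by 0.84 ± 0.15. Postn, periostin, a matricellular protein of fibroblasts, had 442 and 479 CPM against 2442 and 2341 CPM in MEFs and overlapped at day 3, with 82.2 and 56.6 CPM against 73.0 and 66.0 CPM (2.38 ± 0.22). Lum, lumican, a proteoglycan (2.35 ± 0.53), Thbs2 (2.30), Tnc (1.90), Vcan (1.82) and Fbn1 (1.70) rose as well. The enzymes Loxl2 (1.57) and Lox (1.25), which cross-link collagen, and Serpinh1 (1.37), the collagen chaperone, rose, whereas Timp1, an inhibitor of matrix proteases (−0.80), and Mfap5, a microfibril protein (−0.63), fell.

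Of 30 fibroblast and mesenchymal genes tested 6 rose and 5 fell (20% and 16.7%, against 9.59% and 5.13% of all genes tested). The median difference was 0.10, and the list divided by role. Of 10 surface proteins and receptors 5 rose, among them Pdgfra (2.26 ± 0.41), Cdh11 (1.66 ± 0.19), Tgfbr2 (1.498 ± 0.19) and Pdgfrb (1.01 ± 0.25, and 0.52 without day 3 P-body replicate 1). Of 9 cytoskeletal and contractile genes 4 fell, which were S100a4 (−1.85 ± 0.25), Tpm2 (−0.90), Myl9 (−0.79) and Tagln (−0.70). S100a4, a calcium-binding protein, had 3179 and 2609 CPM in MEF P-bodies against 427 and 604 CPM, and 238 and 316 CPM against 171 and 184 CPM at day 3. The 11 transcription factors gave 1 rise, Zeb2 (1.19), and 1 fall, Twist1 (−1.20 ± 0.36, edgeR adjusted p = 0.0476).

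The insulin-like growth factor (IGF) system gave 7 rises and 2 falls among 23 genes tested (30.4% and 8.70%, against 9.59% and 5.13% of all genes tested), at a median difference of 0.28. Igf2 (chromosome 7, 142650766 to 142666816), the fetal growth factor, had 0.286 and 0.518 CPM in MEF P-bodies, which were 7 and 13 reads, and 24.2 and 24.2 CPM in MEF cytoplasm. Day 3 libraries had 5.70 and 4.25 CPM in P-bodies and 8.99 and 10.1 CPM in the cytoplasm (4.96 ± 0.40, edgeR adjusted p = 0.000214). The Igf2 receptor gene Igf2r rose (1.84 ± 0.24), as did the adaptors Irs1 (1.86 ± 0.25) and Grb10 (1.12). Igfbp2, a binding protein (−0.90), and Irs2, an adaptor (−0.92), fell.

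ER chaperones and secretory pathway genes gave 18 rises and 5 falls among 59 (30.5% and 8.47%, against 9.59% and 5.13% of all genes tested, median difference 0.21). Chaperones and folding enzymes accounted for 7 rises and no fall, with Canx (0.92 ± 0.14), Pdia4 (0.83), Hsp90b1 (0.74) and Hspa5 (0.64). Translocon and signal recognition genes went both ways, with Srp68 (0.90 ± 0.15) and Sec61a1 (0.79) up and the small subunits Srp14 (−0.9995 ± 0.18), Ssr4 (−0.83) and Sec61b (−0.61) down. Tmed9, a cargo receptor of ER export, rose most (1.78 ± 0.22).

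Cytosolic ribosomal protein genes gave falls and no called rise. Of 80 cytosolic ribosomal protein genes 27 fell (33.8%, against 5.13% of all genes tested) and 0 rose by edgeR at an adjusted p under 0.05, while 53 were not called. With the smooth trend with transcript length removed from each library, 7 fell and 1 rose. All 80 were enriched in MEF P-bodies and 50 at day 3, with medians of 1.32 and 0.63 and a median difference of −0.65. Of all 3288 genes enriched in MEF P-bodies 808 fell. Rpl7 had 1360 and 1200 CPM in MEF P-bodies against 369 and 457 CPM, and 906 and 1153 CPM against 698 and 724 CPM at day 3 (−1.10 ± 0.20). Its fractions did not overlap in either condition, and the gap was smaller at day 3. The fall differed between the 2 day 3 P-body libraries. The list median was 1.34 and 1.33 in the MEF libraries, 0.28 in day 3 replicate 1 and 0.92 in replicate 2.

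Of 76 respiratory chain genes tested 33 fell (43.4%, against 5.13% of all genes tested), 1 rose and 42 were not called, with 19 of the falls among 37 complex I subunits. In MEF P-bodies 72 of the 76 were enriched, and of all 3288 genes enriched there 808 fell. Medians were 1.28 in MEFs and 0.53 at day 3, and the median difference was −0.74. Cox4i1, a subunit of complex IV, had 996 and 928 CPM in MEF P-bodies against 288 and 307 CPM, and 576 and 780 CPM against 436 and 445 CPM at day 3 (−1.07 ± 0.19). Uqcrh (−1.13 ± 0.26) and Ndufs4 (−1.08 ± 0.19) fell by similar amounts. The list medians of the P-body libraries were 1.35 and 1.20 in MEFs and 0.27 and 0.74 at day 3.

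How many genes of these lists were called depended on the libraries. Without day 3 P-body replicate 1, 47 ribosomal protein and 52 respiratory chain genes fell, and without replicate 2, 79 and 68. Without MEF cytoplasm replicate 1 the counts were 3 and 1, without its replicate 2 they were 10 and 10, without day 3 cytoplasm replicate 1 they were 3 and 6, and without its replicate 2 they were 1 and 0, the last with 51 respiratory chain genes at an unadjusted p under 0.05. Without MEF P-body replicates 1 and 2 they were 5 and 8, and 8 and 15. Matrix genes that rose numbered 23 to 51 over the 8 fits, with 28 without MEF cytoplasm replicate 1, 24 without day 3 cytoplasm replicate 1 and 23 without its replicate 2.

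Chromatin and transcription regulators rose in 17 of 78 cases (21.8%, against 9.59% of all genes tested) and fell in 0, by edgeR at an adjusted p under 0.05, with medians of −0.78 in MEFs and −0.44 at day 3. With the length trend removed, 4 rose and 10 fell. In MEFs 54 of the 78 were depleted from P-bodies, and of all 4216 genes depleted there 1574 rose. The median transcript length of the list was 7323 bases. Among all genes with a mean of at least 10 CPM and a transcript of 5246 bases or more 29.8% rose. Dnmt1, the maintenance DNA methyltransferase, had 33.1 and 29.7 CPM in MEF P-bodies against 152 and 142 CPM, and 153 and 110 CPM against 211 and 211 CPM at day 3 (1.55 ± 0.21). Ncoa3, a coactivator (1.10 ± 0.20), Kdm5c and Kdm5b, histone demethylases (1.02 ± 0.25 and 0.98 ± 0.16), and Chd4, a remodeller (1.01 ± 0.18), followed. This count was 34 without day 3 P-body replicate 2 and 11 without MEF P-body replicate 1. It was 4 and 8 without MEF cytoplasm replicates 1 and 2, and 2 and 1 without day 3 cytoplasm replicates 1 and 2.

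Cell cycle genes rose in 13 of 50 cases (26.0%, against 9.59% of all genes tested) and fell in 1 (2%, against 5.13%). Replication and mitosis factors gave 10 of the rises, among 20 tested, such as Kif11, a spindle kinesin (1.26 ± 0.27), Top2a, a topoisomerase (1.04 ± 0.17), and Mki67 (0.82). Of 18 cyclins and kinases 1 rose, Bub1b (0.87, and 0.43 without day 3 P-body replicate 1). The cyclin-dependent kinase inhibitor genes Cdkn1c (1.18 ± 0.26) and Cdkn2c (1.12 ± 0.31) rose, and Cdkn2b fell (−0.67).

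Long noncoding RNAs fell in 9 of 27 cases (33.3%, against 5.13% of all genes tested) and rose in 2 (7.41%, against 9.59%), at a median difference of −0.89. Malat1 (chromosome 19, 5795690 to 5802672), which is retained in nuclear speckles, had 4525 and 6579 CPM in MEF P-bodies against 898 and 945 CPM, and 1369 and 1742 CPM against 1282 and 1278 CPM at day 3 (−2.31 ± 0.23, edgeR adjusted p = 0.000594). Kcnq1ot1 (−1.88 ± 0.22), Neat1 (−1.06) and the small nucleolar RNA host gene Snhg20 (−2.27 ± 0.28) also fell. Of 14 nuclear-retained RNAs in the list 5 fell and 1 rose, at medians of 1.66 in MEFs and 0.27 at day 3, and the part of nuclear RNA in the other results was not tested. H19 and Tug1 (0.73, and 0.42 without day 3 P-body replicate 1) rose.

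Genes of the P-body itself showed no common direction, with 5 rises and 4 falls among 53 (9.43% and 7.55%, against 9.59% and 5.13% of all genes tested) and a median difference of 0.10. Ddx6, the helicase of P-body assembly, had 70.4 and 49.7 CPM in MEF P-bodies against 140 and 130 CPM, and 101 and 91.9 CPM against 107 and 98.0 CPM at day 3 (1.08 ± 0.22). Cnot1, the scaffold of the CCR4-NOT deadenylase, rose (1.11 ± 0.23, and 0.71 without day 3 P-body replicate 1). Pan3, an adaptor of the PAN2 deadenylase (−1.17 ± 0.32), and Lsm6 (−1.17 ± 0.18), Lsm7 (−1.07 ± 0.24) and Lsm4 (−0.89), subunits of the LSM ring that aids decapping, fell. Lsm14a rose (1.04), and reads of the GFP-tagged LSM14A could count at it.

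Translation factors gave 7 rises and 6 falls among 48 (14.6% and 12.5%, against 9.59% and 5.13% of all genes tested), from Eif3c (1.17 ± 0.13), a core subunit of initiation factor eIF3, to Eef1b2 (−1.02 ± 0.18), an elongation factor. Immediate-early and C/EBP genes gave 5 each among 35 (14.3% each, against 9.59% and 5.13% of all genes tested), with Jun, a subunit of AP-1, rising (1.44 ± 0.21) and Cebpb and Id1 to Id3 among the falls. Let-7 targets gave 5 rises and 2 falls among 32 (15.6% and 6.25%, against 9.59% and 5.13% of all genes tested, median difference 0.03). Thbs1, a matricellular protein (1.38 ± 0.19), rose and Cdc34, a ubiquitin-conjugating enzyme (−0.98 ± 0.17), fell.

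Epithelial genes, gained in early reprogramming, gave 5 rises and 1 fall among 30 (16.7% and 3.33%, against 9.59% and 5.13% of all genes tested). Krt8, a keratin of simple epithelia, had 1 read in each MEF P-body library, and 1.96 and 1.64 CPM in MEF cytoplasm. Its day 3 levels were 22.0 and 16.2 CPM in P-bodies and 22.1 and 25.2 CPM in the cytoplasm. Tjp1, a tight junction scaffold, rose (1.55 ± 0.21), as did Krt18, the partner of Krt8 (1.06 ± 0.29). Esrp2, an epithelial splicing factor, also had a positive difference, with 10 to 85 reads in each library, but its level was not gained. Its means went from 2.82 to 0.429 CPM in the cytoplasm and from 1.03 to 0.987 CPM in P-bodies. The protease inhibitor Spint1 fell, with 10 and 36 reads in MEF P-bodies, 4 and 3 in MEF cytoplasm and 350 to 393 in day 3 libraries. Many early pluripotency genes were low, but some were expressed at day 3. Alpl had means of 41.5 CPM in day 3 P-bodies and 65.9 CPM in day 3 cytoplasm, and Fbxo15 had 21.7 and 17 CPM. Dppa5a had a mean of 17.6 CPM (SD 8.13) in day 3 P-bodies, 0.0546 CPM in day 3 cytoplasm and 0 CPM in MEF P-bodies and cytoplasm. The source of its reads was not tested. Among 21 tested 2 rose and 1 fell, shares near those of all genes tested (9.52% and 4.76%, against 9.59% and 5.13%). Tet2, a DNA dioxygenase (0.77 ± 0.18), and Mycn rose, the latter with 0 and 1 reads in MEF P-bodies, and Trim71, a let-7 target and repressor of mRNAs, fell (−1.48 ± 0.34).

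**Figure D4:**
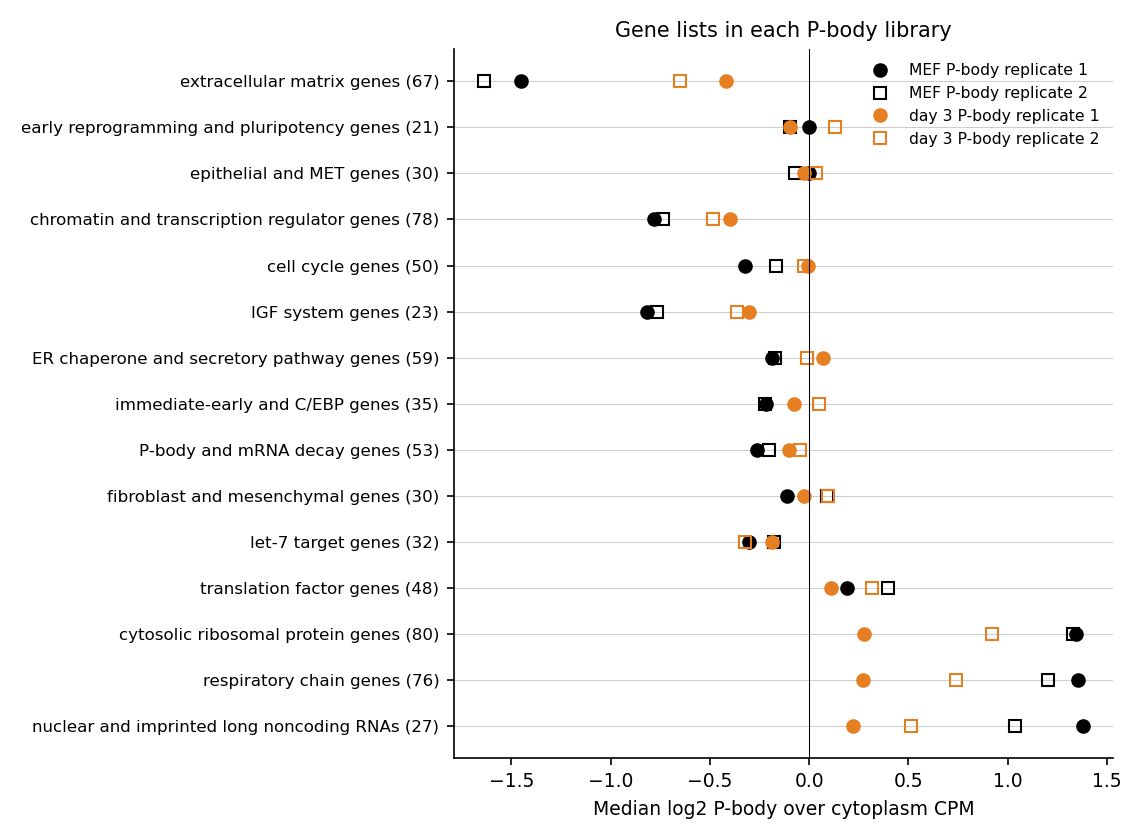
Median log2 enrichment of each gene list in each P-body library over the mean of the cytoplasm libraries of its condition (x axis), with the number of genes tested in brackets; black symbols are MEF and orange symbols day 3 libraries. Matrix genes lie at −1.45 and −1.64 in MEFs and at −0.42 and −0.65 at day 3, and ribosomal protein genes at 1.34 and 1.33 against 0.28 and 0.92.

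Some genes were called on opposite sides in the 2 conditions. Of the 41 genes enriched in MEFs and depleted at day 3, the median enrichment was 0.87 in MEFs and −0.94 at day 3. Besides Cebpb, Klf4 (with the cassette's reads), Id4, Ybx3, Dvl1, Eid2 and Meg3, they held Akt1, the growth factor kinase, Smad4, the shared SMAD of TGF-β signalling, and Pcbp1, which binds poly(C) RNA. Akt1 had 191 and 202 CPM in MEF P-bodies against 112 and 160 CPM, and 101 and 99.3 CPM against 202 and 265 CPM at day 3 (−1.76 ± 0.24). Smad4 had 55.7 and 51.4 CPM against 26.2 and 39.5 CPM in MEFs and 36.8 and 39.0 CPM against 55.6 and 79.7 CPM at day 3 (−1.54 ± 0.30).

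In the other direction, 32 genes were depleted in MEFs and enriched at day 3, with medians of −0.63 and 0.54. Gvin1 and Gm4070 had identical values, since they share reads, so these are 31 distinct profiles. Spp1 (chromosome 5, 104435118 to 104441050), osteopontin, a secreted phosphoprotein, had 720 and 679 CPM in MEF P-bodies against 2434 and 2394 CPM, and 337 and 373 CPM against 283 and 285 CPM at day 3 (2.11 ± 0.14, edgeR adjusted p = 0.000109). Zfp62, a zinc finger protein, had 262 and 282 CPM against 342 and 380 CPM in MEFs and 293 and 207 CPM against 126 and 118 CPM at day 3 (1.44 ± 0.21). In total 6 of the 32 were Zfp zinc finger genes, which make up 2.22% of all genes tested. The set also held Clock, the circadian transcription factor (0.82 ± 0.15), and Stag2, a cohesin subunit (0.93 ± 0.20). The genes named from these sets were chosen after their values were seen.

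Both sets rest on a spread shared with the MEF libraries. Each gene kept its day 3 sign without either day 3 P-body library, but the genes had been chosen with these libraries in the fit. When the 4 day 3 libraries were fitted alone, 1 of the 41 and 0 of the 32 were called by edgeR at day 3, with 41 and 31 at an unadjusted p under 0.05. The 41 had a median GC content of 56.9% and the 32 of 40.7%, against 50.2% over all genes tested.

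Another 4 libraries at day 3, from MEFs with a Nudt21 knockdown, were not used to find these genes. They share the reprogramming and differ in the knockdown of a factor of polyadenylation. All 41 genes of the first set were below 0 in their P-body enrichment (median −1.19), 35 of them called depleted and 0 called enriched by edgeR. Of the 32 genes of the second set 27 were above 0 (median 0.24), with 6 called enriched and 0 called depleted. Over all genes the knockdown libraries gave 957 enriched (5.26%) and 1202 depleted (6.60%). All these knockdown calls come from a fit that also held the MEF and day 3 control libraries. Their spread is therefore shared with the libraries that chose the genes, and the numbers of calls are not an independent check. Cebpb stood at −2.19, Klf4 at −1.17, Spp1 at 0.39 and Zfp62 at 0.73. Of the genes with the largest rises, Lama4 stood at −0.24 and Ptk7 at −0.50 in the knockdown, beside day 3 control values of −0.29 and −0.62. The spread of enrichment over genes was 0.414 (SD) in the knockdown, against 0.467 in day 3 control and 0.871 in MEF libraries.

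Transcript length went with the difference. Over 9439 genes with a mean of at least 10 CPM and an annotated transcript, Spearman's correlation of length was −0.591 with MEF enrichment, −0.483 with day 3 enrichment and 0.489 with the difference, a description across genes, which are not independent. It was 0.377 without day 3 P-body replicate 1 and 0.533 without replicate 2. With GC content the difference correlated at −0.158. In 5 bins of equal size by length, the shortest (up to 1839 bases) had a median enrichment of 0.77 in MEFs and 0.34 at day 3 and the longest (from 5246 bases) of −0.70 and −0.26. In the shortest bin 2.44% of genes rose and 21.5% fell, and in the longest 29.8% rose and 2.65% fell.

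The leading lists differ in length, with medians of 5063 bases for matrix, 7323 for chromatin, 910 for ribosomal protein and 908 for respiratory chain genes, against 3076 over all genes tested. After the smooth trend with length had been removed from each library, 1041 genes rose and 829 fell. In that fit 39 matrix genes rose, at a median difference of 0.68, whereas 7 ribosomal protein and 7 respiratory chain genes fell, at medians of −0.12 and −0.13. Of the chromatin genes 4 rose and 10 fell in that fit, at a median of 0.03. Risen and fallen genes numbered 8 and 4 in the cell cycle list, 2 and 6 among let-7 targets, and 22 and 0 in the ER and secretory list. The IGF list had 6 and 2, at a median of −0.0078 in place of 0.28. Of the 24 genes with the largest differences, the 21 with an annotated length were called in this fit.

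**Figure D5:**
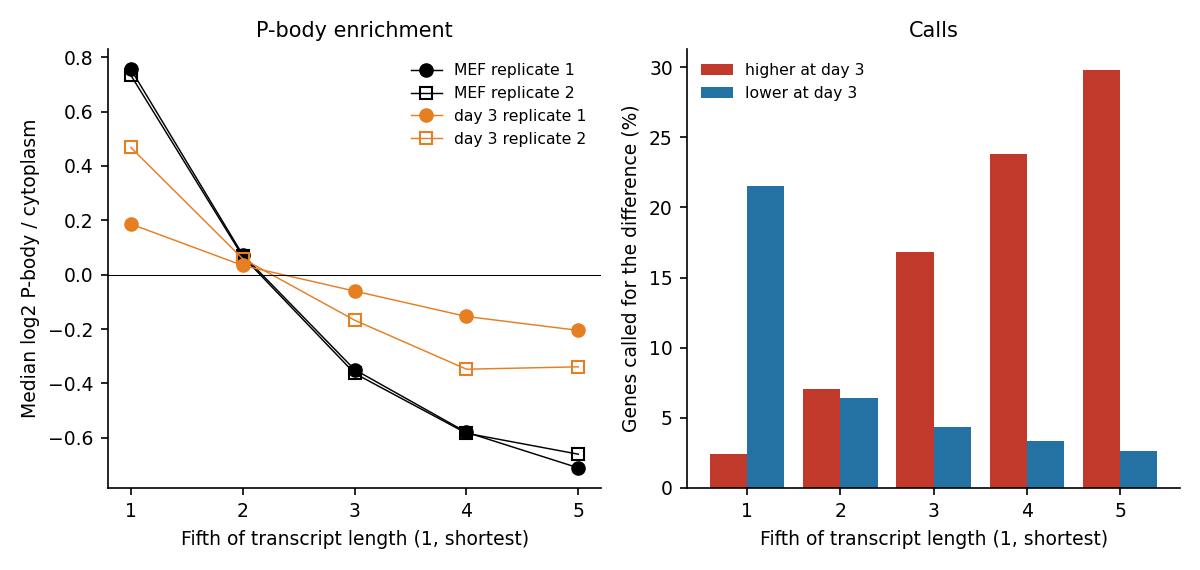
Left, median log2 enrichment in 5 bins of equal size by transcript length (1, shortest) for each P-body library; right, share of genes called higher (red) or lower (blue) at day 3 in each bin. MEF medians run from 0.76 and 0.73 in bin 1 to −0.71 and −0.66 in bin 5, and day 3 medians from 0.19 and 0.47 to −0.20 and −0.34.

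The 3′ UTR motifs went with little of the difference. Genes with TATTTAT (31% of those at 10 CPM) had a median difference of 0.24, and those without it of 0.05. Genes with CTACCTC, a match to the let-7 seed (10.1%), stood at 0.21 against 0.10, and genes with GCACTT, a match to bases 2 to 7 of the miR-290 seed (34.4%), at 0.25 against 0.03. Genes with a motif had longer 3′ UTRs, with medians of 2174, 2398 and 2296 bases against 877, 1090 and 797. Within 5 bins of 3′ UTR length the gap between genes with and without a motif lay between −0.03 and 0.08 for TATTTAT, −0.07 and 0.01 for CTACCTC and −0.03 and 0.08 for GCACTT.

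Markers of other cell types were looked at in the same libraries. The summed level of 10 lung epithelial markers was 7.43 and 94.4 CPM in MEF P-bodies, 0.596 and 0.249 CPM in MEF cytoplasm and 13.9 to 20 CPM at day 3, where Ager made up 12.1 to 17.6 CPM. In MEF P-body replicate 2 most of it was Scgb1a1 (44.9 CPM) and Sftpc (43.6 CPM), secretory products of lung cells, which had 0 reads in both MEF cytoplasm libraries. Macrophage and blood markers summed to 8.91 and 43.2 CPM in MEF P-bodies, led by Lyz2, lysozyme (3.15 and 25.8 CPM), and to 4.27 to 17.6 CPM elsewhere. Sftpd, Ager, H2-Aa and Lyz2 had called falls. Sftpd had 4 and 27 reads and H2-Aa 4 and 75 reads in MEF P-bodies, and both had 0 in MEF cytoplasm. Internal organs had been removed before culture, and the part of such RNA in the other results was not tested. Endothelial markers summed to 123 to 204 CPM at day 3 and 5.89 to 10.5 CPM in MEFs, nearly all of it Tek, a receptor kinase (114 to 198 CPM at day 3). Muscle markers summed to 127 to 205 CPM in MEFs and at most 9.95 CPM at day 3. Among them Des, desmin, had a positive difference (1.81 ± 0.33) although its level fell. Its means went from 66.4 to 2.88 CPM in the cytoplasm and from 25.5 to 3.89 CPM in P-bodies. Neural markers summed to 182 to 349 CPM, and keratinocyte markers stayed at 3.57 to 11.8 CPM. Nes, nestin, a neural marker, had a positive difference (1.01 ± 0.20). Its cytoplasmic means were 127 CPM in MEFs and 118 CPM at day 3.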

How the data were processed

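The authors sequenced RNA of sorted P-bodies and of cytoplasm by SMART-Seq, aligned reads to mm10 with HISAT2 and counted them on UCSC refGene exons with featureCounts. The deposited table holds counts per gene for 20 libraries, which are expected counts in part, since 18.1% to 25.7% of values per library were fractions of reads. The main results use the 8 libraries named and, for a check, 4 Nudt21 knockdown libraries. All 20 libraries entered only an alternative fit given below.

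Counts were rounded, and genes with at least 10 reads in total were scaled by TMM and fitted with 1 term per group. The test was edgeR's two-sided quasi-likelihood F test (edgeR 4.0.16 in R 4.3.3), p-values were adjusted by Benjamini-Hochberg over all genes tested, and calls were made at an adjusted p under 0.05. The 4 residual degrees of freedom are shared by all groups. CPM are TMM-scaled. Values of single P-body libraries are log2(CPM + 0.5) minus the mean of the cytoplasm libraries. Levels of different genes were not compared per length. On simulated counts of this comparison over 17154 genes, 50% of changes of 1 and 97% of changes of 2 log2 units were recovered, with 9 false among 156 calls. The changes were placed in 200 genes with a mean of at least 10 CPM, no other gene differed, and each gene had the same spread in all groups. In the real libraries the spread differed between groups and many more genes were called, so these rates need not hold for them. Length, GC content and 3′ UTRs are those of each gene's longest coding transcript in GENCODE M21 (mm10), found for 96.9% of genes at 10 CPM.

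Named genes are the 4 factors, the 12 largest called differences in each direction with a mean of at least 10 CPM and 10 reads in each library, and called members of each gene list. Up to 5 members with the largest difference were taken per list, other members named were chosen after their values were seen, and up to 3 genes in each direction that failed the read minimum are given by reads. The members and gene lists were chosen with earlier results of these data known.

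Alternatives were DESeq2 (version 1.42.0), its size factors within edgeR, other filters, replicate blocks, all 20 or 12 MEF-derived libraries in 1 fit, and each library left out. Removal of the length trend and the fit of each condition alone were chosen after seeing the data. Correlations of same-numbered deviations between P-body and cytoplasm libraries were −0.01 in MEFs and 0.15 at day 3, so the numbers were not taken as pairs.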

Additional observations from a re-analysis of the deposited data

Results flagged for a closer look

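The enrichment in the 2 conditions was compared by the interaction term of the fit (edgeR), which flagged 1677 genes as higher and 898 as lower at day 3 than in MEFs. The 12 largest rises were Lrrc15 (3.32), Lama4 (3.15), Ptk7 (3.06), H19 (2.92), Capn6 (2.92), Igsf10 (2.71), Aldh1l2 (2.65), Epha3 (2.56), Fbn2 (2.46), Ddit4 (2.45), F2rl1 (2.44) and Iqgap2 (2.43), as differences of log2 enrichment. The 12 largest falls were G530011O06Rik (−3.35), Cebpb (−3.23), Fabp7 (−3.19), Id1 (−3.19), Eid2 (−3.12), Ybx3 (−2.77), Atoh8 (−2.68), Dvl1 (−2.61), Id2 (−2.59), Smpd3 (−2.59), Id4 (−2.59) and Meg3 (−2.51). Groups of 2 libraries are too small for a test of single outlying samples.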

How the results depend on the processing

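With 2 libraries a group and 4 residual degrees of freedom, the number of calls moved more than the direction of single genes, and the causes were not tested. The genes had been chosen on the same libraries, so a kept direction is no independent check. Risen genes numbered 1041 with the length trend removed, an alternative chosen after seeing the data. Fallen genes numbered 1392 with DESeq2, 1430 without a filter and 1545 with all 20 libraries in 1 fit, where rises made up 54.7% of calls in place of 65.1%. Day 3 gave 1728 enriched genes with DESeq2, 1661 enriched and 2104 depleted without a filter, and 1473 enriched in a fit of 12 libraries. Its own 4 libraries alone, also chosen after seeing the data, gave 31 and 71. Fallen ribosomal protein genes numbered 46 (DESeq2), 64 (no filter), 49 (20 libraries), 42 (12 libraries) and 7 (length trend removed). Fallen respiratory chain genes numbered 54, 59 and 56 with DESeq2, no filter and 20 libraries and 7 with the length trend removed, which left 4 risen chromatin genes.

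A replicate block by preparation gave 1748 risen and 1042 fallen genes and a block by number 1770 and 1004. Fallen ribosomal protein genes numbered 46 and 43 in these fits. Of the other counts of calls none moved by over 1.5 times under either block. The block by preparation gives no value for day 3 against MEFs within a fraction, since no preparation holds both.

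With each library left out in turn, risen genes numbered 167 to 3124 and fallen genes 92 to 2479. MEF-enriched genes numbered 2171 (without MEF cytoplasm replicate 1) to 4482. Day 3 enriched genes numbered 0 to 2725 and depleted genes 2 to 3788. The 0 came without either day 3 cytoplasm library in edgeR, with 1352 and 1342 enriched genes at an unadjusted p under 0.05, and the highest counts came without day 3 P-body replicate 1. Genes lower in day 3 cytoplasm numbered 2710 (without day 3 cytoplasm replicate 2) to 4936. Risen matrix genes ranged from 23 to 51, fallen ribosomal protein genes from 1 to 79, fallen respiratory chain genes from 0 to 68 and risen chromatin genes from 1 to 34. The correlation with length ranged from 0.377 to 0.533. Myc ranged from −0.0074 (without MEF cytoplasm replicate 1) to 0.19. Of the 24 genes with the largest differences, Smpd3 alone lost its call, in 1 fit, and 3 without an annotated length could not be tested with the length trend removed.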
